A study of Mus musculus with 12 samples.

Results

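Astrocyte spheres (A-iSC) were compared gene by gene with the astrocytes they started from (AST), both from C57BL/6 mouse brain. The A-iSC group held 3 libraries of astrocyte-derived cells after 5 days of incubation, and the study's design places this induction in 3D cell spheres. The AST group held 3 libraries of astrocytes at 0 days of incubation, the negative control of the design. No AST library stands at 5 days, so time in culture and induction in spheres cannot be told apart. The labels name no allele, transgene, sorting step, age or culture medium for either group. Genes entered the comparison when they carried a name and reached 1 FPKM (fragments per kilobase of gene length, scaled to library size) in at least 3 of these 6 libraries. That left 13310 genes of 55421 named entries, in a table of 55862 entries over 12 libraries. Whether the 3 libraries of a group stand for different cultures or mice is not in the labels, and a p-value here reflects no more than how these libraries scatter, which may be technical.

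In brain tissue, astrocytes take up glutamate and convert it to glutamine, store glycogen, supply lipids and secrete factors that act on synapses, vessels and microglia. What a cell can sense depends on its receptors, and what it tells its neighbours on the factors it secretes. Transcription factors set which genes are read, and enzymes and carriers set what the cell takes up, makes and breaks down.

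After 5 days, single genes had changed in both directions. On the higher side, the neurotensin receptor Ntsr2 averaged 39.1 FPKM in A-iSC and 0.0870 FPKM in AST, the glycolytic enzyme Aldoc 406 FPKM in A-iSC and 13 FPKM in AST and the myeloid transcription factor Irf8 17.9 FPKM in A-iSC and 1.29 FPKM in AST. On the lower side, the signalling ligand Shh averaged 0.920 FPKM in A-iSC and 55.4 FPKM in AST, the retinoic acid binding protein Crabp1 0.291 FPKM in A-iSC and 78.2 FPKM in AST and the replication enzyme Rrm2 7.33 FPKM in A-iSC and 126 FPKM in AST. Errors and tests for these genes are given with their groups.

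Levels are FPKM as deposited, and means carry the SD over the 3 libraries of each group. Differences are A-iSC minus AST on the scale of log2(FPKM + 1), with standard errors, which understates the change of genes at low levels. A gene was called when limma's Benjamini-Hochberg adjusted p over the 13310 genes was below 0.05 and the difference was 2-fold or more. By this rule 2910 genes were called (21.9%), of which 1401 were higher (10.5% of genes tested) and 1509 lower in A-iSC (11.3%). Without the fold threshold 7298 genes were called (54.8%), 3257 higher (24.5%) and 4041 lower (30.4%). The values of the groups did not overlap for 8326 genes (62.6%). Lack of overlap was also a condition for genes named by rule, so it adds no support for them. The median difference over all genes was -0.08, and 0.10 when the libraries were scaled by total reads. That scaling changed the share of higher genes among the 2-fold calls to 60.7%, against 48.1% with the deposited scaling (58.6% against 44.6% for calls of any size). Each count below is therefore read against 10.5% higher and 11.3% lower, and a list whose direction changed with the scaling is marked.

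The A-iSC libraries held 18266792 to 23742044 reads on named genes, against 17059270 to 21522803 in the AST libraries. They split by gene length. A-iSC 1, A-iSC 2 and AST 2 had relatively more signal on short genes, and A-iSC 3, AST 1 and AST 3 on long ones. Across genes, the Spearman correlation of a library's deviation from its group mean with gene length was -0.311, -0.254 and 0.346 in A-iSC 1 to 3, and 0.400, -0.503 and 0.433 in AST 1 to 3. Reads of the mitochondrial genome made up 3.06% to 7.04% of those in A-iSC, against 2.94% to 4.7% in AST. Because each group has libraries on both sides, the difference could be taken within each side, as A-iSC 1 and 2 minus AST 2 (the short-gene side) and as A-iSC 3 minus AST 1 and 3 (the long-gene side). All 2910 genes called at 2-fold or more had the same sign on both sides, and 2336 (80.3%) were 2-fold or more on each. These are parts of the same difference and no independent test of it.

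**Figure D1:**
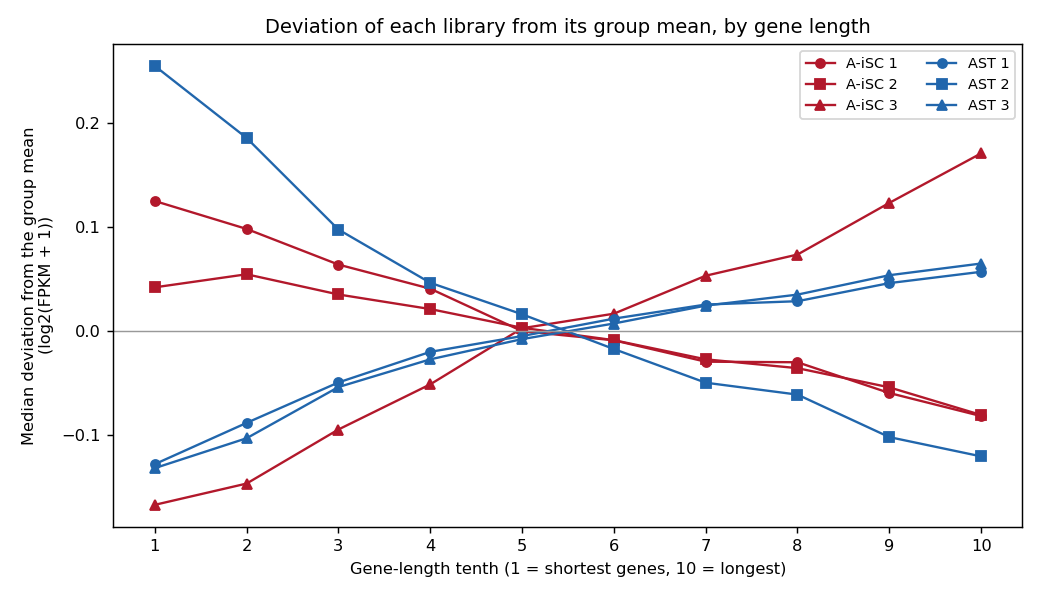
Median deviation of each library from its group mean on the log2(FPKM + 1) scale (y axis) in 10 equal groups of genes ordered by length (x axis), with A-iSC in red and AST in blue. A-iSC 1, A-iSC 2 and AST 2 slope downwards with length, and A-iSC 3, AST 1 and AST 3 slope upwards.

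Both groups expressed astrocyte genes, and other cell types' genes moved with the comparison. The astrocyte markers summed to 11857 to 13845 FPKM in A-iSC and 750 to 932 FPKM in AST, mostly from Apoe, and 11 of 13 tested were called higher. These sums therefore largely follow Apoe, and which cells expressed it in these bulk libraries was not tested. Gfap, the intermediate filament protein of astrocytes, had 658, 769 and 1483 FPKM in A-iSC, against 31.1, 27.2 and 31.3 FPKM in AST. Markers of microglia and macrophages summed to 4310 to 5995 FPKM in A-iSC and 416 to 519 FPKM in AST, with 17 of 18 tested called higher and no marker at 0 throughout either group. Fibroblast and mural cell markers summed to 35.9 to 71.1 FPKM in A-iSC and 1891 to 2285 FPKM in AST, with 5 of 6 tested lower and 1 higher. Markers of mitosis and replication summed to 134 to 140 FPKM in A-iSC and 525 to 546 FPKM in AST (17 of 19 lower). Oligodendrocyte lineage markers summed to 208 to 228 FPKM in A-iSC and 124 to 148 FPKM in AST, with Mobp at 0 in AST and 6 of 9 tested higher, and endothelial markers to 3.28 to 4.79 FPKM in A-iSC and 10.3 to 11.5 FPKM in AST, with Cldn5 at 0 in AST and 3 of 5 tested lower. Neuron markers summed to 59.4 to 77.0 FPKM in A-iSC and 92.7 to 129 FPKM in AST, although more of the 8 tested were called higher (4) than lower (2), with a median difference of 0.79. Ependymal markers summed to 83.0 to 88.3 FPKM in A-iSC and 51.3 to 66.7 FPKM in AST (4 of 8 tested higher, none lower), and red blood cell genes to under 1 FPKM in every library. In these bulk libraries, fewer cells of a type and less RNA per cell cannot be told apart, and the part of these cell types in the results below was not tested.

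**Figure D2:**
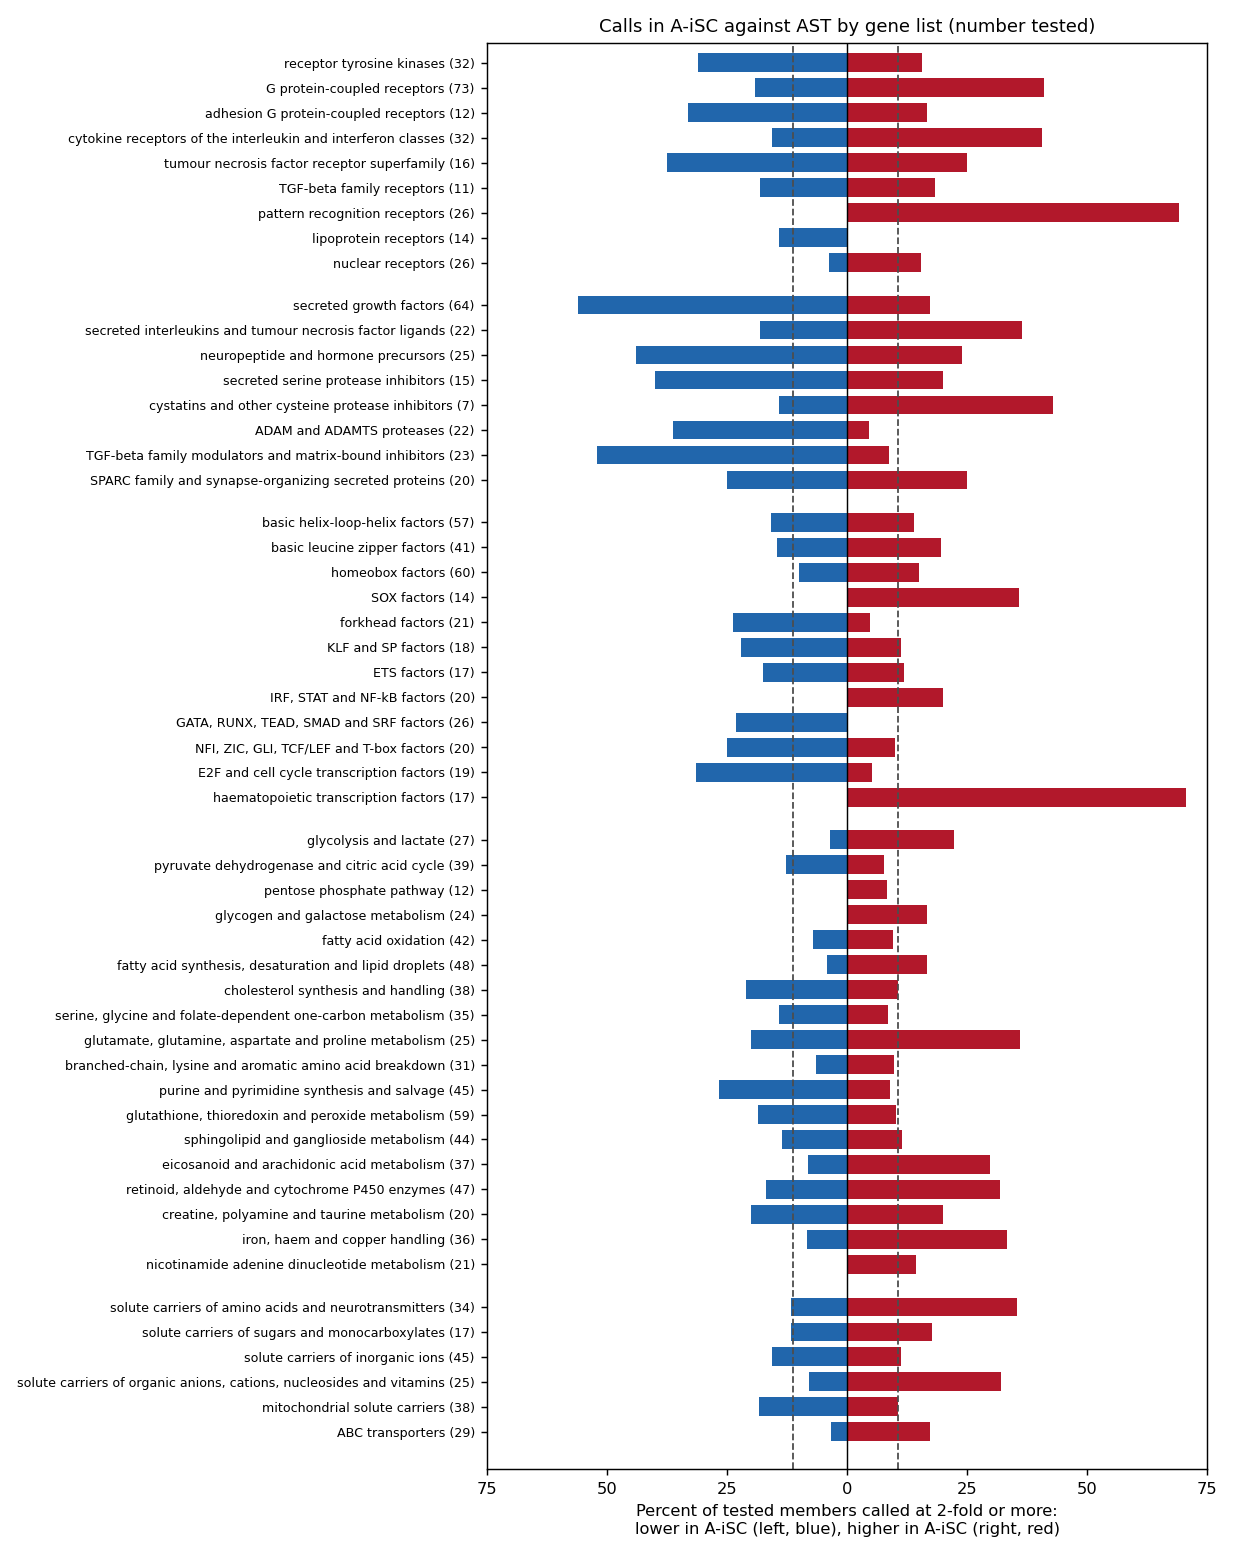
Share of the tested members of each gene list called at 2-fold or more in A-iSC against AST, higher to the right in red and lower to the left in blue, with the number tested in parentheses. Dashed lines mark the share over all 13310 genes, 10.5% higher and 11.3% lower. Haematopoietic transcription factors (12 of 17) and pattern recognition receptors (18 of 26) reach furthest right, and secreted growth factors (36 of 64) furthest left.

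The promoters of genes that moved were searched for 14 short motifs in RefSeq windows of 300 bases (250 before to 50 after the start, both strands), with 1 or more windows for 9664 of the 13310 genes. The PU.1 site, written GAGGAAGT, stood in 5.41% of windows of genes called higher in A-iSC, 2.37% of those called lower and 3.02% of all windows of tested genes. PU.1 is the factor encoded by Spi1, a regulator of myeloid cells. The core of the interferon-stimulated response element (GAAA, any pair of bases, and GAAA again) stood in 6.30%, 2.45% and 3.02% of the same sets of windows. The CArG box, bound by serum response factor at genes of contraction, stood in 1.19% of windows of higher genes, 3.09% of windows of lower genes and 1.25% of all. The cAMP response element TGACGTCA was in 1.04%, 2.37% and 2.98%. The other 10 motifs searched were AP-1 (TGANTCA), in 7.26% of windows of higher genes and 6.98% of windows of lower genes, STAT (TTCNNNGAA), in 8.01% and 6.19%, TEAD (GGAATG), in 12.8% and 16%, and the E-box CACGTG, in 6.97% and 8.49%. CCAAT was in 35.7% of windows of higher genes and 39.3% of windows of lower genes, the TATA box TATAAA in 10.4% and 9.86%, and the sterol response element TCACNNCAC in 4.52% and 3.96%. The E2F sites TTTGGCGC and TTTCCCGC were in 0.815% and 1.01%, and in 0.815% and 2.09%, and the NFI site in 0.0741% and 0.0719%. Over all tested genes these 10 shares were 5.15%, 6.68%, 12.2%, 9.94%, 37.7%, 7.23%, 3.61%, 0.954%, 1.97% and 0.0243% in the same order. Motifs can overlap each other, genes can have several windows, and a match is a description of the letters that shows no binding. The windows of 5 genes are given in build GRCm38.p6, from RefSeq, 5′ to 3′ on the gene's strand, with the matched motif in capitals. For a gene with several windows, the one with most matches to the marked motifs is given. Csf2rb2 and Slco2b1, which rose, hold a PU.1 site, and Fcgr4, an antibody receptor of myeloid cells that rose as well, holds a PU.1 site and an interferon-stimulated response element core. Other windows of Slco2b1 held no PU.1 site, and neither did those of Irf8, Clec7a and Cd68, which also rose. Myl9, a myosin light chain, and Tcf7, a transcription factor of Wnt signalling, fell and hold a CArG box. The shared PU.1 letters stand on either strand, so they read as GAGGAAGT or as its reverse complement. Fcgr4 and Myl9 were chosen after their values were seen.
Csf2rb2 (chr15:78305672-78305971, minus strand): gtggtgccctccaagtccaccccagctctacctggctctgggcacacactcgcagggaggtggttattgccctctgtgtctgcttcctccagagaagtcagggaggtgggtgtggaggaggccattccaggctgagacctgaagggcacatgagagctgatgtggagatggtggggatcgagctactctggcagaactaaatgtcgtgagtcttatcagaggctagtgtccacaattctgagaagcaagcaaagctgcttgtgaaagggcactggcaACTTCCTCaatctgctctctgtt
Slco2b1 (chr7:99711291-99711590, minus strand): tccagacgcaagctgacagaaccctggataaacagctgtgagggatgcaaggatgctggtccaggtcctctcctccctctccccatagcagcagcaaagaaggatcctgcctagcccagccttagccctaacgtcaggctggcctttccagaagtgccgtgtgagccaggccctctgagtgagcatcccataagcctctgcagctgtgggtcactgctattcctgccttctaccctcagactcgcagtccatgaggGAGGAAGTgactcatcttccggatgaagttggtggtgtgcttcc
Fcgr4 (chr1:171018676-171018975, plus strand): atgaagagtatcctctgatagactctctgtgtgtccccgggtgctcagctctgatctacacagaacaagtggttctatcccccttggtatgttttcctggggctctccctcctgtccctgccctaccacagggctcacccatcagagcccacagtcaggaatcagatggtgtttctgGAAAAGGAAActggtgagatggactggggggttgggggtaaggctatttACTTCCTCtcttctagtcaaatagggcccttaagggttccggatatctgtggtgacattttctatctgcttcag
Myl9 (chr2:156775214-156775513, plus strand): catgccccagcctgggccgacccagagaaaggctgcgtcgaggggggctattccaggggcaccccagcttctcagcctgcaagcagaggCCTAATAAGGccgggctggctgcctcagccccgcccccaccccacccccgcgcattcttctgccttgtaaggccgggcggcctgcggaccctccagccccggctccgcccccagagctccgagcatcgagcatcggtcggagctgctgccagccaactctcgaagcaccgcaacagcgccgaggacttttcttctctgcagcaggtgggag
Tcf7 (chr11:52282546-52282845, minus strand): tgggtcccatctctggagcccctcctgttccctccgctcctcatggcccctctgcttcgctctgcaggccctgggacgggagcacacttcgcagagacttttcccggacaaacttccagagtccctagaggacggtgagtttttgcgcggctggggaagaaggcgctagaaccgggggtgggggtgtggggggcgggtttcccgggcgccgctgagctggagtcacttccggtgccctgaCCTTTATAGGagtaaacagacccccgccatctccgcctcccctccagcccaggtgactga
Fcgr4 was at 33.5 ± 8.64 FPKM in A-iSC and 1.16 ± 0.0827 FPKM in AST and Myl9 at 41.3 ± 12.6 FPKM in A-iSC and 485 ± 101 FPKM in AST. A CArG box also stood in windows of Hes5 and Hopx, which rose, and a window of Abcg2, which fell, held a PU.1 site.

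Receptors were called higher more often than lower. Of 242 receptor genes tested in 9 lists, 78 were higher and 44 lower. The lists with most calls on the higher side held G protein-coupled receptors, cytokine receptors and pattern recognition receptors, and the tyrosine kinase and tumour necrosis factor receptor lists leaned lower. Of 73 G protein-coupled receptors 30 were higher and 14 lower (median difference 0.45). Ntsr2, a neurotensin receptor (ENSMUSG00000020591, chromosome 12: 16653382 to 16660227, plus strand, build GRCm38), had 38.7, 51.1 and 27.5 FPKM in A-iSC, against 0.0956, 0.0790 and 0.0863 FPKM in AST (log2 difference 5.16 ± 0.21, limma adjusted p = 4.17e-06). All A-iSC libraries stood far above the AST ones, which were close to 0. Ednrb, the endothelin receptor of astrocytes (ENSMUSG00000022122, chromosome 14: 103814625 to 103844402, minus strand), had 154, 166 and 320.4 FPKM in A-iSC, against 11.7, 12.1 and 13.2 FPKM in AST (log2 difference 3.92 ± 0.27, limma adjusted p = 2.27e-05). A-iSC 3 was the highest library for this gene, and the difference was 3.62 on the short-gene side and 4.58 on the long-gene side. Adcyap1r1, the receptor of the neuropeptide PACAP, had 18.4, 19.99 and 37.5 FPKM in A-iSC, against 0.867, 0.702 and 0.791 FPKM in AST (log2 difference 3.81 ± 0.25, limma adjusted p = 1.92e-05). Here too the highest library was A-iSC 3.

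Among the G protein-coupled receptors that fell were F2rl1, a receptor cleaved by trypsin-like proteases, Gprc5a, an orphan receptor induced by retinoic acid, and Adra1d, an adrenergic receptor. F2rl1 (ENSMUSG00000021678, chromosome 13: 95511732 to 95525227, minus strand) had 1.05, 1.15 and 0.476 FPKM in A-iSC, against 29.5, 28.3 and 30.1 FPKM in AST (log2 difference -4.02 ± 0.16, limma adjusted p = 4.08e-06). Gprc5a was at 5.01 ± 1.95 FPKM in A-iSC and 54 ± 0.434 FPKM in AST and Adra1d at 1.5 ± 0.281 FPKM in A-iSC and 19.3 ± 1.59 FPKM in AST. F2r, the thrombin receptor, encoded on the same chromosome, was at 35.1 ± 8.4 FPKM in A-iSC and 279 ± 20.7 FPKM in AST (log2 difference -2.98 ± 0.18, limma adjusted p = 1.5e-05); it was chosen after its values were seen. Both protease-activated receptors were lower in A-iSC. Of 12 adhesion receptors of this class 2 were higher and 4 lower, a lead that was a tie of 3 and 3 when scaled by total reads. Adgre1, the macrophage antigen F4/80, was at 40.1 ± 10.1 FPKM in A-iSC and 4.47 ± 1.62 FPKM in AST, and Adgra2, which acts in Wnt7 signalling in brain vessels, at 0.558 ± 0.0305 FPKM in A-iSC and 6.83 ± 1.18 FPKM in AST.

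Receptor tyrosine kinases fell more often than they rose, with 10 of 32 lower and 5 higher (median -0.43). Epha2, a receptor of membrane-bound ephrins (ENSMUSG00000006445, chromosome 4: 141301240 to 141329384, plus strand), had 2.94, 2.74 and 1.62 FPKM in A-iSC, against 57, 48.1 and 57.3 FPKM in AST (log2 difference -4.02 ± 0.18, limma adjusted p = 4.93e-06). The groups stood far apart. Ntrk2, the receptor of brain-derived neurotrophic factor, had 36.9, 42.6 and 90.8 FPKM in A-iSC, against 10.8, 7.35 and 10.2 FPKM in AST (log2 difference 2.37 ± 0.33, limma adjusted p = 0.000711). Its spread within A-iSC was wide, with A-iSC 3 above the others. Pdgfra, the platelet-derived growth factor receptor of oligodendrocyte precursors, was at 5.5 ± 1.43 FPKM in A-iSC and 0.373 ± 0.0736 FPKM in AST, while Pdgfrb, that of mural cells and fibroblasts, was at 2.79 ± 0.464 FPKM in A-iSC and 11.1 ± 1.58 FPKM in AST. Csf1r, the receptor that microglia need to survive, is also one of the microglia markers and was at 87.5 ± 15.3 FPKM in A-iSC and 7.61 ± 0.745 FPKM in AST (log2 difference 3.35 ± 0.15, limma adjusted p = 5.43e-06). Of its exonic length 15.1% is shared with Hmgxb3 on the other strand, and the library kit does not mark strand. Ptk7, a pseudokinase of planar polarity, was at 10.2 ± 1.13 FPKM in A-iSC and 29.1 ± 1.98 FPKM in AST. Ddr1, a collagen receptor at a high level in both groups, was at 149 ± 20.1 FPKM in A-iSC and 135 ± 3.85 FPKM in AST and did not pass the test (limma adjusted p = 0.47). Ddr1 and the other genes given below as not passing the test were chosen after their values were seen.

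Cytokine receptors of the interleukin and interferon classes were higher in 13 and lower in 5 of 32 cases (median 0.48). Csf3r, the granulocyte colony-stimulating factor receptor, had 15.8, 13.3 and 9.5 FPKM in A-iSC, against 0.496, 0.451 and 0.686 FPKM in AST (log2 difference 3.14 ± 0.18, limma adjusted p = 1.14e-05). Il10ra, the ligand-binding chain for interleukin 10, was at 12.9 ± 1.22 FPKM in A-iSC and 0.631 ± 0.185 FPKM in AST, and Csf2rb2, a receptor chain for interleukin 3 in the mouse, at 13.3 ± 1.16 FPKM in A-iSC and 0.807 ± 0.133 FPKM in AST. Csf2rb2 has a near-identical neighbour, Csf2rb, at 7.55 ± 0.928 FPKM in A-iSC and 0.455 ± 0.169 FPKM in AST, so reads may be split between the pair, and Csf2rb was chosen after its values were seen. Among those that fell were Ghr, the growth hormone receptor (2.01 ± 0.418 FPKM in A-iSC and 10.5 ± 0.443 FPKM in AST) and Il1rap, the accessory chain of the interleukin 1 receptor (1.92 ± 0.529 FPKM in A-iSC and 6.35 ± 0.857 FPKM in AST). Csf3r, Il10ra and Csf2rb2 are best known from myeloid cells. The microglia and macrophage markers given above were higher in the same libraries.

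Of the 26 pattern recognition receptors 18 were higher and none was lower (median 1.68). Clec7a, the beta-glucan receptor Dectin-1, had 49.2, 41.6 and 47.3 FPKM in A-iSC, against 2.4, 2.37 and 2.69 FPKM in AST (log2 difference 3.75 ± 0.11, limma adjusted p = 2.93e-06). Cd68, a lysosomal scavenger receptor of macrophages, had 311, 233 and 140.2 FPKM in A-iSC, against 25, 37 and 27.6 FPKM in AST (log2 difference 2.84 ± 0.30, limma adjusted p = 0.000168). The 3 A-iSC libraries differed from each other for Cd68 by more than those of Clec7a did, with A-iSC 3 lowest. Zbp1, a sensor of Z-form nucleic acid induced by interferon, was at 13 ± 4.67 FPKM in A-iSC and 0.795 ± 0.163 FPKM in AST. Cd68 and Trem2 are shared with the microglia markers. Their part in the counts of this list was not tested.

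Of 16 receptors of the tumour necrosis factor superfamily 4 were higher and 6 lower (median -0.87). Tnfrsf12a, the receptor of the ligand TWEAK, had 56.9, 51.4 and 31.8 FPKM in A-iSC, against 270.1, 385 and 265 FPKM in AST (log2 difference -2.71 ± 0.25, limma adjusted p = 9.86e-05). Its ligand Tnfsf12 moved the other way, at 10.2 ± 4.38 FPKM in A-iSC and 3.17 ± 1.55 FPKM in AST (log2 difference 1.40 ± 0.36, limma adjusted p = 0.0135). Without A-iSC 2, Tnfsf12 did not pass the test (limma adjusted p = 0.0515), and it was called at 2-fold or more in 19 of 21 alternative settings. Tnfrsf19, a receptor without a death domain also called TROY, was at 23 ± 8.94 FPKM in A-iSC and 1.83 ± 0.327 FPKM in AST, Tnfrsf1b, the second receptor of tumour necrosis factor, at 27.2 ± 2.66 FPKM in A-iSC and 8.54 ± 2.08 FPKM in AST, Tnfrsf10b, a death receptor, at 2.58 ± 0.411 FPKM in A-iSC and 17.5 ± 0.372 FPKM in AST, and Ngfr, the low-affinity neurotrophin receptor, at 1.04 ± 0.418 FPKM in A-iSC and 6.05 ± 0.930 FPKM in AST. Among the receptors of the TGF-beta family 2 of 11 were higher and 2 lower, and 3 higher and 1 lower when scaled by total reads. Acvr1b, an activin receptor, was at 13.6 ± 1.66 FPKM in A-iSC and 4.11 ± 0.669 FPKM in AST and Tgfbr1 at 15.7 ± 3.68 FPKM in A-iSC and 5.8 ± 1.07 FPKM in AST. Of 14 lipoprotein receptors 2 were lower and none higher. Lrp2, the endocytic receptor megalin, was at 0.919 ± 0.0783 FPKM in A-iSC and 15.3 ± 3.62 FPKM in AST. Lrp1, a receptor for many ligands including apolipoprotein E, was at 45.5 ± 15.7 FPKM in A-iSC and 35.4 ± 12.4 FPKM in AST and was not called (limma adjusted p = 0.377). Of 26 nuclear receptors 4 were higher and 1 lower (median 0.34). The thyroid hormone receptor Thra was at 42.4 ± 5.35 FPKM in A-iSC and 13.4 ± 0.783 FPKM in AST and the retinoid partner Rxra at 10.8 ± 1.48 FPKM in A-iSC and 3.77 ± 0.601 FPKM in AST.

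**Figure D3:**
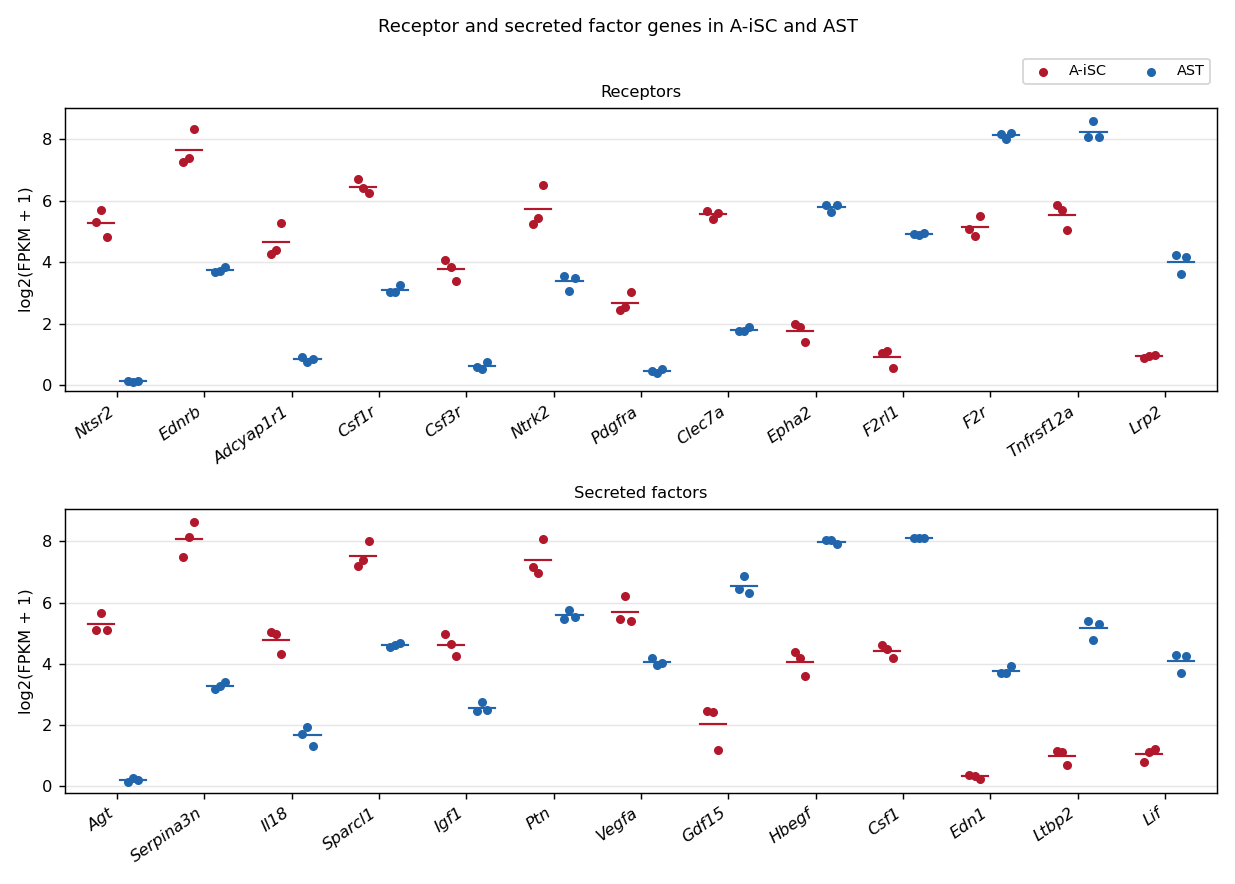
Levels of 13 receptor genes (upper panel) and 13 genes of secreted factors (lower panel) as log2(FPKM + 1), with 1 point for each library, A-iSC in red on the left and AST in blue on the right of each gene, and a line at the group mean. A-iSC 3 lies apart from A-iSC 1 and 2 for Ednrb, Ntrk2, Ptn and Gdf15.

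Genes in the lists of secreted factors fell more often than they rose. These lists also hold products that are not secreted, such as the chaperone Serpinh1 described below. Of 197 genes tested in 8 lists 83 were lower and 39 higher, and growth factors made the largest part, with 36 of 64 lower and 11 higher (median -1.07). Csf1, the ligand of Csf1r (ENSMUSG00000014599, chromosome 3: 107741048 to 107760469, minus strand), had 23.3, 21.2 and 17.3 FPKM in A-iSC, against 277, 275 and 273 FPKM in AST (log2 difference -3.68 ± 0.14, limma adjusted p = 3.52e-06). The spread of Csf1 within each group was small beside the distance between the groups. Hbegf, a ligand of the epidermal growth factor receptor, had 19.9, 17.4 and 11 FPKM in A-iSC, against 260.2, 261 and 240.4 FPKM in AST (log2 difference -3.94 ± 0.21, limma adjusted p = 8.3e-06). Gdf15, a stress-induced member of the TGF-beta family, had 4.53, 4.45 and 1.29 FPKM in A-iSC, against 86.6, 116 and 78.3 FPKM in AST (log2 difference -4.51 ± 0.35, limma adjusted p = 3.84e-05), with A-iSC 3 far below the other A-iSC libraries.

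The growth factors that rose included Igf1, Ptn and Vegfa. Igf1, insulin-like growth factor 1, had 30.5, 24.2 and 18 FPKM in A-iSC, against 4.48, 5.75 and 4.62 FPKM in AST (log2 difference 2.06 ± 0.20, limma adjusted p = 0.000103). Ptn, the heparin-binding factor pleiotrophin, had 142, 124 and 270.0 FPKM in A-iSC, against 43.6, 52.7 and 45.4 FPKM in AST (log2 difference 1.81 ± 0.28, limma adjusted p = 0.00129). Ptn had the widest gap between the sides of the gene-length split of all 249 genes named by rule, 1.32 on the short-gene side and 2.58 on the long-gene side. Vegfa, the vascular endothelial growth factor, had 42.9, 73.7 and 41.2 FPKM in A-iSC, against 17.2, 14.7 and 15.2 FPKM in AST (log2 difference 1.63 ± 0.22, limma adjusted p = 0.000672), with A-iSC 2 highest. Several ligands moved against their receptors, and these pairs were chosen after their values were seen. Edn1, the endothelin 1 precursor, was at 0.256 ± 0.0573 FPKM in A-iSC and 12.7 ± 1.36 FPKM in AST (log2 difference -3.45 ± 0.12, limma adjusted p = 2.93e-06), while its receptor Ednrb rose. Bdnf was at 1.4 ± 0.279 FPKM in A-iSC and 7.81 ± 0.205 FPKM in AST while Ntrk2 rose, and Pdgfa at 14.2 ± 3.93 FPKM in A-iSC and 50.2 ± 7.23 FPKM in AST while Pdgfra rose. For Csf1 and Il34 (1.09 ± 0.290 FPKM in A-iSC and 3.97 ± 0.264 FPKM in AST), the ligands of Csf1r, the levels fell in the same libraries in which Csf1r rose.

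Interleukins and ligands of the tumour necrosis factor family were higher in 8 and lower in 4 of 22 cases. Il18, a cytokine matured by the inflammasome, had 31.7, 30.4 and 19.1 FPKM in A-iSC, against 2.31, 2.82 and 1.51 FPKM in AST (log2 difference 3.11 ± 0.23, limma adjusted p = 3.34e-05). Lif, leukaemia inhibitory factor, had 0.753, 1.17 and 1.34 FPKM in A-iSC, against 18.7, 12 and 18.2 FPKM in AST (log2 difference -3.04 ± 0.20, limma adjusted p = 1.73e-05). A-iSC 3 was the lowest A-iSC library for Il18 and the highest for Lif. Of 25 neuropeptide and hormone precursors 11 were lower and 6 higher. Agt, the angiotensinogen made by astrocytes, had 33.7, 49.7 and 33.1 FPKM in A-iSC, against 0.0946, 0.209 and 0.171 FPKM in AST (log2 difference 5.08 ± 0.17, limma adjusted p = 2.93e-06). Scg3, a granule protein, was at 65.9 ± 6.39 FPKM in A-iSC and 8.54 ± 0.702 FPKM in AST, Nppc, the precursor of C-type natriuretic peptide, at 2.04 ± 0.519 FPKM in A-iSC and 13.5 ± 2.1 FPKM in AST, and the adrenomedullin precursor Adm at 5.35 ± 0.976 FPKM in A-iSC and 29.3 ± 5.28 FPKM in AST.

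Protease inhibitors and proteases were divided by family. Of 15 serpins 6 were lower and 3 higher. Serpina3n, a serpin of reactive astrocytes (ENSMUSG00000021091, chromosome 12: 104406729 to 104414329, plus strand), had 179, 283 and 393 FPKM in A-iSC, against 8.09, 8.65 and 9.6 FPKM in AST (log2 difference 4.80 ± 0.27, limma adjusted p = 9.67e-06). In AST the most abundant tested serpin was Serpinh1, a collagen chaperone of the endoplasmic reticulum rather than a secreted inhibitor, at 82.5 ± 11.5 FPKM in A-iSC and 516 ± 71.7 FPKM in AST. The cystatin list, which also holds genes that are not cystatins, had 3 higher and 1 lower of 7. It was led by Itih3, which is not a cystatin and is linked to hyaluronan (28.5 ± 6.96 FPKM in A-iSC and 0.690 ± 0.132 FPKM in AST), and Cst7, an inhibitor of lysosomal cathepsins (10.8 ± 2.57 FPKM in A-iSC and 0.490 ± 0.381 FPKM in AST). Cst3, the abundant cystatin C, was at 2010.1 ± 248 FPKM in A-iSC and 814 ± 175 FPKM in AST. ADAM and ADAMTS proteases were lower in 8 and higher in 1 of 22 cases. Adam12 was at 0.996 ± 0.195 FPKM in A-iSC and 11.3 ± 1.86 FPKM in AST and Adam9 at 28.8 ± 10.1 FPKM in A-iSC and 127 ± 17.7 FPKM in AST, and the member that rose was Adam8, known from leukocytes, at 34 ± 9.05 FPKM in A-iSC and 7.38 ± 0.544 FPKM in AST.

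Modulators and matrix-bound inhibitors of the TGF-beta family fell in 12 of 23 cases and rose in 2 (median -1.13). Ltbp2, a latent TGF-beta binding protein of microfibrils, had 1.25, 1.17 and 0.615 FPKM in A-iSC, against 41.4, 26.8 and 38.4 FPKM in AST (log2 difference -4.17 ± 0.20, limma adjusted p = 6.49e-06). Fst, the activin-binding protein follistatin, was at 0.695 ± 0.264 FPKM in A-iSC and 15.6 ± 0.399 FPKM in AST, and Fbln2, a matrix fibulin, at 1.86 ± 0.227 FPKM in A-iSC and 27.3 ± 4.59 FPKM in AST. The fibroblast and mural cell markers fell in the same libraries. Of the SPARC family and synapse organizers 5 of 20 were higher and 5 lower, and the directions differed within the family. Sparcl1, or hevin, which promotes synapses, had 144, 167 and 258 FPKM in A-iSC, against 22.2, 23.5 and 24.5 FPKM in AST (log2 difference 2.92 ± 0.21, limma adjusted p = 3.12e-05). Sparc, which opposes it at synapses, had 284, 301 and 401 FPKM in A-iSC, against 1692, 1486 and 1612 FPKM in AST (log2 difference -2.29 ± 0.20, limma adjusted p = 7.25e-05). C1ql1, a synaptic ligand, was at 101 ± 16.5 FPKM in A-iSC and 5.33 ± 1.11 FPKM in AST, Smoc1, a matrix protein of astrocytes and oligodendrocyte precursors, at 15.8 ± 0.589 FPKM in A-iSC and 1.33 ± 0.0860 FPKM in AST, and Gpc4, a glypican that astrocytes release to promote synapses, at 31.5 ± 3.59 FPKM in A-iSC and 221 ± 17 FPKM in AST.

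Transcription factors were called higher in 44 and lower in 49 of 316 cases over 12 lists (median 0.12). Hes5 (ENSMUSG00000048001, chromosome 4: 154960923 to 154962371, plus strand), an effector of Notch, had 8.85, 9.16 and 5.64 FPKM in A-iSC, against 0.306, 0.687 and 0.395 FPKM in AST (log2 difference 2.58 ± 0.19, limma adjusted p = 3.29e-05). Twist1, a factor of mesenchymal cells, had 1.86, 1.89 and 1.35 FPKM in A-iSC, against 21.5, 30.2 and 23 FPKM in AST (log2 difference -3.25 ± 0.16, limma adjusted p = 6.63e-06). A-iSC 3 was the lowest library of its group for both genes. Of 57 basic helix-loop-helix factors 8 were higher and 9 lower, and 12 and 8 when scaled by total reads. Hes1, an effector of Notch like Hes5, went the other way, at 11.2 ± 4.25 FPKM in A-iSC and 56 ± 12.3 FPKM in AST. Arntl, the clock factor also called BMAL1, was at 2.3 ± 0.327 FPKM in A-iSC and 10.5 ± 0.909 FPKM in AST and Lyl1, a factor of blood cells, at 14.9 ± 5.5 FPKM in A-iSC and 1.46 ± 0.142 FPKM in AST.

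SOX factors rose in 5 of 14 cases and fell in none (median 0.60). Sox10, the factor of the oligodendrocyte lineage (ENSMUSG00000033006, chromosome 15: 79154908 to 79165240, minus strand), had 12.3, 12.4 and 8.83 FPKM in A-iSC, against 0.0782, 0.388 and 0.371 FPKM in AST (log2 difference 3.25 ± 0.17, limma adjusted p = 7.93e-06). Sox21 was at 33.8 ± 5.96 FPKM in A-iSC and 8.18 ± 0.215 FPKM in AST and Sox9, which is also counted as an astrocyte marker, at 44.4 ± 11.6 FPKM in A-iSC and 17.5 ± 1.3 FPKM in AST. Of 60 homeobox factors 9 were higher and 6 lower, a lead that was a tie of 8 and 8 with quantile normalization. Hopx, found in quiescent stem cells and astrocytes, had 20.7, 22.7 and 31.6 FPKM in A-iSC, against 2.75, 3.19 and 1.6 FPKM in AST (log2 difference 2.89 ± 0.22, limma adjusted p = 3.91e-05). A-iSC 3 was the highest library for Hopx. Dlx1, a factor of forebrain interneurons, was at 5.83 ± 1.35 FPKM in A-iSC and 1.06 ± 0.0853 FPKM in AST, the neural factor Pou3f2 at 10.4 ± 1.29 FPKM in A-iSC and 3.12 ± 0.232 FPKM in AST and Msx2, a target of bone morphogenetic proteins, at 1.95 ± 0.283 FPKM in A-iSC and 11.1 ± 1.51 FPKM in AST. Nfia, which starts glial differentiation, rose (16 ± 1.3 FPKM in A-iSC and 4.49 ± 0.673 FPKM in AST), and Tcf7 of the same list fell (3.12 ± 0.277 FPKM in A-iSC and 14.2 ± 0.276 FPKM in AST). Of that list of 20 factors 5 were lower and 2 higher.

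Haematopoietic factors were higher in 12 of 17 cases and lower in none (median 1.27). Spi1, the gene of PU.1 (ENSMUSG00000002111, chromosome 2: 91082390 to 91115756, plus strand), had 55.2, 41.9 and 23.7 FPKM in A-iSC, against 3.25, 5.12 and 4.54 FPKM in AST (log2 difference 2.90 ± 0.30, limma adjusted p = 0.000159). Irf8, its partner in microglia, had 19.1, 18.2 and 16.4 FPKM in A-iSC, against 1.28, 1.26 and 1.33 FPKM in AST (log2 difference 3.04 ± 0.11, limma adjusted p = 2.93e-06). Spi1 differed by over 2-fold within A-iSC, with A-iSC 3 lowest, and Irf8 did so far less. Irf5 and Irf7, which induce interferon genes, were at 14.8 FPKM in A-iSC and 2.02 FPKM in AST (Irf5) and 61.7 FPKM in A-iSC and 7.02 FPKM in AST (Irf7). Of the exonic length of Irf5 14.1% is shared with Tnpo3 on the other strand. The list of IRF, STAT and NF-kB factors had 4 of 20 higher and none lower. These lists overlap, since Irf8 and Irf5 stand in both. The microglia and macrophage markers, given above, rose in the same libraries, and their part in the counts of these lists was not tested.

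Basic leucine zipper factors were higher in 8 and lower in 6 of 41 cases. Maff, a small Maf protein (ENSMUSG00000042622, chromosome 15: 79346621 to 79359076, plus strand), had 6.66, 5.06 and 5.22 FPKM in A-iSC, against 121, 143 and 122 FPKM in AST (log2 difference -4.29 ± 0.14, limma adjusted p = 2.93e-06), the largest fall in these 12 lists. Mafk, another small Maf protein, fell too (7.53 ± 0.462 FPKM in A-iSC and 34.1 ± 0.686 FPKM in AST). The stress factor Atf3 rose (30.03 ± 7.55 FPKM in A-iSC and 9.03 ± 1.25 FPKM in AST). Nfe2l2, the factor of the oxidative stress response that pairs with small Maf proteins, was at 55 ± 16.1 FPKM in A-iSC and 52.2 ± 7.32 FPKM in AST and was not called (limma adjusted p = 0.87). Fosl1 was at 1.33 ± 0.667 FPKM in A-iSC and 6.97 ± 0.509 FPKM in AST, but 57.2% of its exonic length is shared with Ccdc85b on the other strand, so its value is uncertain.

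Lists of cell cycle, TEAD, SMAD and forkhead factors leaned lower. Of 26 GATA, RUNX, TEAD, SMAD and SRF factors 6 were lower and none higher (median -0.45). Vgll3, a cofactor of TEAD, had 1.74, 1.71 and 1.31 FPKM in A-iSC, against 21.9, 19.1 and 21.8 FPKM in AST (log2 difference -3.09 ± 0.12, limma adjusted p = 3.96e-06). Smad6 and Smad7, the inhibitory SMADs, were at 6.33 ± 1.55 FPKM in A-iSC and 34.6 ± 0.448 FPKM in AST for Smad6 and at 4.35 ± 0.836 FPKM in A-iSC and 19.5 ± 0.235 FPKM in AST for Smad7. Of 19 E2F and cell cycle factors 6 were lower and 1 higher. Foxm1, which drives mitotic genes, was at 1.66 ± 0.184 FPKM in A-iSC and 10.2 ± 1.21 FPKM in AST, Mybl1 at 5.19 ± 0.423 FPKM in A-iSC and 24.6 ± 1.44 FPKM in AST and E2f1 at 4.15 ± 0.122 FPKM in A-iSC and 13.9 ± 1.57 FPKM in AST. The member that rose, Rbl2, encodes p130, a repressor of E2F targets in resting cells (7.83 ± 2.59 FPKM in A-iSC and 2.73 ± 0.181 FPKM in AST). Of its exonic length 9.2% is shared with Aktip on the other strand, a gene at 21.2 FPKM in its higher group, so the value of Rbl2 is uncertain. The markers of mitosis and replication fell in the same libraries. Of 21 forkhead factors 5 were lower and 1 higher. The ciliary factor Foxj1 was at 44.3 ± 6.91 FPKM in A-iSC and 43.3 ± 3.81 FPKM in AST (limma adjusted p = 0.904). KLF and SP factors had 4 of 18 lower and 2 higher, and 2 and 2 when scaled by total reads or by quantiles. Klf4 was at 5.41 ± 1.35 FPKM in A-iSC and 28.9 ± 2.51 FPKM in AST and Klf15, a glucocorticoid target, at 8.25 ± 1.4 FPKM in A-iSC and 1.28 ± 0.229 FPKM in AST. ETS factors had 3 of 17 lower and 2 higher, and 1 and 2 under those scalings, with Etv5, a target of fibroblast growth factor signalling, at 30.1 ± 3.08 FPKM in A-iSC and 65.2 ± 4.84 FPKM in AST.

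**Figure D4:**
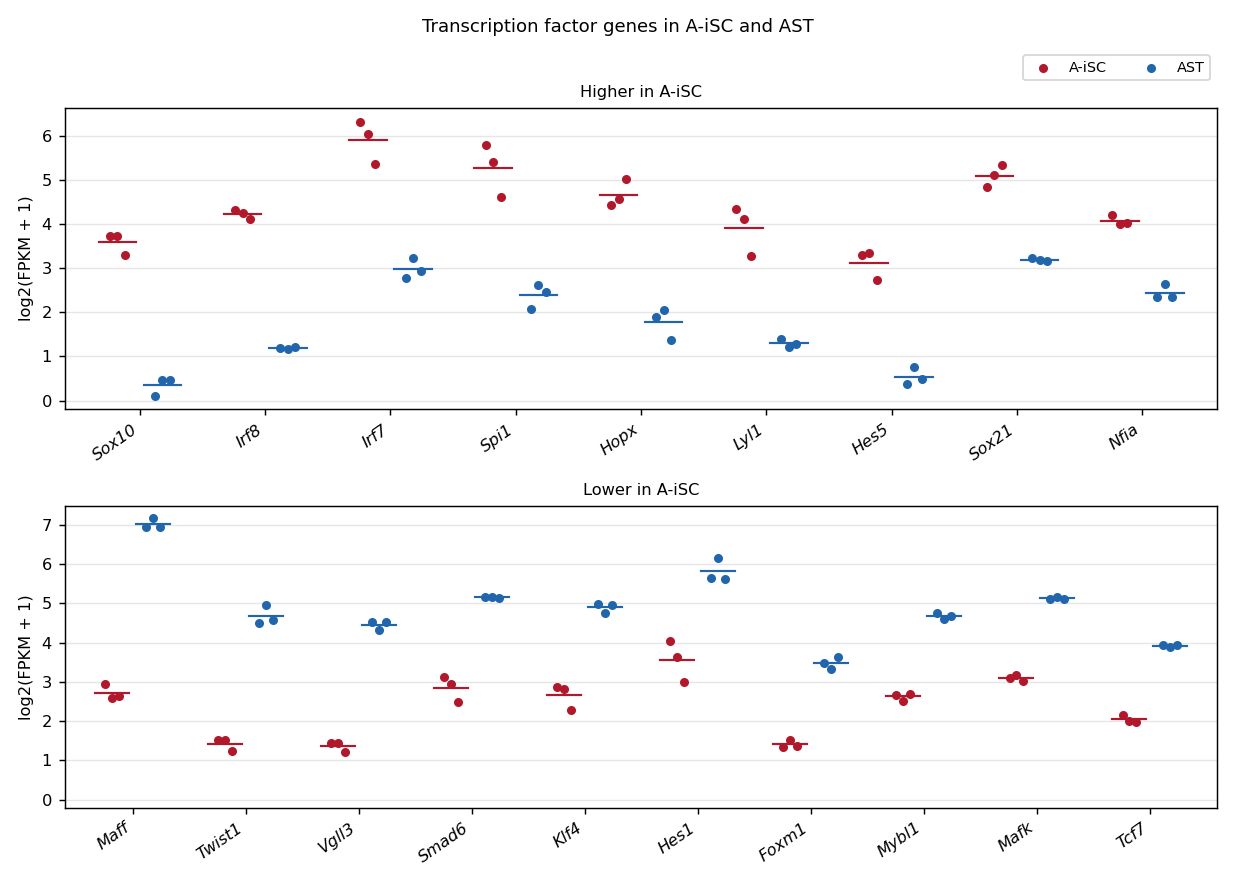
Levels of 19 transcription factor genes as log2(FPKM + 1), with 9 that were higher in A-iSC in the upper panel and 10 that were lower in the lower panel. Each point is a library, A-iSC in red on the left and AST in blue on the right of each gene, with a line at the group mean. In A-iSC the 3 points of Irf8 and Mafk lie close together, and those of Spi1, Irf7, Lyl1 and Hes1 are spread, with A-iSC 3 lowest.

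Metabolic genes were called higher in 100 and lower in 77 of 619 cases over 18 lists (median -0.10). In glycolysis 6 of 27 were higher and 1 lower (median -0.06, but 0.16 when scaled by total reads and 0.31 with quantile normalization). Aldoc, the aldolase of astrocytes (ENSMUSG00000017390, chromosome 11: 78322968 to 78327781, plus strand), had 299, 439 and 480.5 FPKM in A-iSC, against 12.8, 14.2 and 12.1 FPKM in AST (log2 difference 4.83 ± 0.19, limma adjusted p = 4.13e-06). Aldoa, the general aldolase, was at 358 ± 108 FPKM in A-iSC and 346 ± 76 FPKM in AST and was not called (limma adjusted p = 0.96). The monocarboxylate carriers Slc16a3 and Slc16a1, which move lactate, were at 7.3 ± 1.3 FPKM in A-iSC and 0.609 ± 0.0270 FPKM in AST for Slc16a3 and at 47.8 ± 13.3 FPKM in A-iSC and 22 ± 2.02 FPKM in AST for Slc16a1. Hk3, a hexokinase of leukocytes, was at 12.7 ± 4.24 FPKM in A-iSC and 1.42 ± 0.0914 FPKM in AST, and Pgam1, a phosphoglycerate mutase, was at 112 ± 13.6 FPKM in A-iSC and 227 ± 10.1 FPKM in AST. Glycogen and galactose genes were higher in 4 of 24 cases and lower in none. Ppp1r3c, which targets phosphatase to glycogen, had 14.7, 20.3 and 42.5 FPKM in A-iSC, against 2.41, 1.9 and 2.41 FPKM in AST (log2 difference 2.92 ± 0.34, limma adjusted p = 0.000303). A-iSC 3 was the highest library, on the long-gene side. Pygb, the brain glycogen phosphorylase, was at 107 ± 48.5 FPKM in A-iSC and 45.8 ± 10.1 FPKM in AST (log2 difference 1.14 ± 0.31, limma adjusted p = 0.0179). Without AST 2, Pygb did not pass the test (limma adjusted p = 0.0625), and it was called at 2-fold or more in 18 of 21 alternative settings.

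Pyruvate dehydrogenase and citric acid cycle genes were lower in 5 and higher in 3 of 39 cases, and lower in 2 and higher in 3 when scaled by total reads or by quantiles. Of the kinases that switch off pyruvate dehydrogenase, Pdk1, Pdk2 and Pdk4 rose and Pdk3 fell. Pdk4 was at 15.9 ± 3.22 FPKM in A-iSC and 3.27 ± 0.207 FPKM in AST. Pdk1 was at 7.06 ± 2.37 FPKM in A-iSC and 1.75 ± 0.211 FPKM in AST. Pdk2 was at 18.8 ± 2.22 FPKM in A-iSC and 8.48 ± 0.68 FPKM in AST. Pdk3 was at 6.17 ± 1.01 FPKM in A-iSC and 15.4 ± 2.15 FPKM in AST. Mdh2, the mitochondrial malate dehydrogenase, was at 55.2 ± 10.01 FPKM in A-iSC and 119.7 ± 17.1 FPKM in AST, and Me2, a mitochondrial malic enzyme, at 4.13 ± 0.979 FPKM in A-iSC and 14.7 ± 1.38 FPKM in AST. The pentose phosphate pathway had 1 of 12 higher and none lower, and G6pdx, its first enzyme, was at 52.7 ± 11.3 FPKM in A-iSC and 39.8 ± 3.01 FPKM in AST (limma adjusted p = 0.11).

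Genes of lipid handling moved in both directions. Fatty acid synthesis and lipid droplet genes were higher in 8 and lower in 2 of 48 cases. Thrsp, a lipogenic protein under thyroid hormone control, had 26.7, 31.5 and 34.3 FPKM in A-iSC, against 1.39, 2.55 and 1.53 FPKM in AST (log2 difference 3.51 ± 0.18, limma adjusted p = 7.51e-06). Gpam, which starts glycerolipid synthesis, was at 31 ± 15.9 FPKM in A-iSC and 2.77 ± 0.467 FPKM in AST and Mgll, monoacylglycerol lipase, at 30.2 ± 3.68 FPKM in A-iSC and 3.99 ± 0.390 FPKM in AST. Fasn, the fatty acid synthase itself, was at 21 ± 3.67 FPKM in A-iSC and 21.7 ± 4.33 FPKM in AST (limma adjusted p = 0.89). Cholesterol genes were lower in 8 and higher in 4 of 38 cases (median -0.48), and the members that fell were mostly enzymes of synthesis. They included Mvk, Cyp51, Hsd17b7 and Sc5d, and also the feedback protein Insig1 and the sterol carrier Stard5. Hsd17b7 was at 5.49 ± 0.711 FPKM in A-iSC and 19.4 ± 1.73 FPKM in AST and Insig1 at 19.6 ± 3.71 FPKM in A-iSC and 51.4 ± 1.45 FPKM in AST. The 4 that rose were the exporters Abca1 and Abcg1, Mylip, a ubiquitin ligase, and Cyp27a1, which makes an oxysterol. Abcg1 was at 7.82 ± 0.739 FPKM in A-iSC and 0.287 ± 0.0627 FPKM in AST, Mylip at 10.7 ± 2.18 FPKM in A-iSC and 1.25 ± 0.466 FPKM in AST and Abca1 at 53.9 ± 31.2 FPKM in A-iSC and 19.4 ± 5.15 FPKM in AST. Abca1 did not pass the test without AST 2 and without a filter on low values (the higher limma adjusted p was 0.0732). It was called at 2-fold or more in 17 of 21 alternative settings. Fatty acid oxidation had 4 of 42 higher and 3 lower, near the background on both sides. Acot1, an acyl-CoA thioesterase, was at 29 ± 11.2 FPKM in A-iSC and 4.12 ± 0.245 FPKM in AST, with A-iSC 1 lowest of its group, and shares sequence with its neighbour Acot2 (8.37 ± 0.888 FPKM in A-iSC and 3.2 ± 0.224 FPKM in AST). Oxct1, which starts the use of ketone bodies, was at 45.2 ± 11.5 FPKM in A-iSC and 113 ± 10.4 FPKM in AST.

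Amino acid metabolism held large changes in both directions. Of 25 genes of glutamate, glutamine, aspartate and proline metabolism 9 were higher and 5 lower. Glul, the glutamine synthetase of astrocytes, had 190.5, 170.3 and 287 FPKM in A-iSC, against 39, 42.8 and 42.5 FPKM in AST (log2 difference 2.32 ± 0.20, limma adjusted p = 7.19e-05). Arg1, arginase 1 (ENSMUSG00000019987, chromosome 10: 24915221 to 24927484, minus strand), had 15, 21.1 and 15.7 FPKM in A-iSC, against 0.0268, 0.0885 and 0.0483 FPKM in AST (log2 difference 4.10 ± 0.15, limma adjusted p = 2.93e-06). Ass1, the argininosuccinate synthetase that makes arginine from citrulline, had 48.2, 54.2 and 37.5 FPKM in A-iSC, against 266, 282 and 217 FPKM in AST (log2 difference -2.43 ± 0.18, limma adjusted p = 3.24e-05). The directions of these enzymes of arginine metabolism were opposite. Asns, asparagine synthetase, was at 6.79 ± 1.16 FPKM in A-iSC and 21.4 ± 0.868 FPKM in AST. In one-carbon metabolism 5 of 35 were lower and 3 higher, and 4 and 5 when scaled by total reads. The transsulphuration enzymes diverged, with Cbs at 5.33 ± 0.874 FPKM in A-iSC and 0.495 ± 0.0140 FPKM in AST and Cth at 1.22 ± 0.0467 FPKM in A-iSC and 6.33 ± 0.485 FPKM in AST. Mthfd2, a mitochondrial folate enzyme of dividing cells, was at 3.9 ± 0.798 FPKM in A-iSC and 12.6 ± 0.562 FPKM in AST, and Aldh1l1, the folate enzyme used as an astrocyte marker, at 70.6 ± 5.76 FPKM in A-iSC and 28.6 ± 1.31 FPKM in AST. In the breakdown of branched-chain, lysine and aromatic amino acids 3 of 31 were higher (9.68%) and 2 lower (6.45%), both under the background. The list was led by Aldh6a1 at 13.2 ± 3.68 FPKM in A-iSC and 3.73 ± 0.378 FPKM in AST, with 18.6% of its exonic length shared with Bbof1 on the other strand.

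Nucleotide synthesis leaned lower. Of 45 purine and pyrimidine genes 12 were lower and 4 higher (median -0.55). Rrm2, the regulated subunit of ribonucleotide reductase (ENSMUSG00000020649, chromosome 12: 24708241 to 24714146, plus strand), had 6.93, 7.33 and 7.73 FPKM in A-iSC, against 128, 125 and 125 FPKM in AST (log2 difference -3.93 ± 0.10, limma adjusted p = 2.5e-06). Rrm2 and Rrm1 are also among the markers of replication. Ctps, which makes cytidine triphosphate, was at 8.51 ± 0.603 FPKM in A-iSC and 44.9 ± 3.76 FPKM in AST, Tk1, thymidine kinase, at 1.31 ± 0.254 FPKM in A-iSC and 7.73 ± 1.03 FPKM in AST and, in the opposite direction, Adssl1 and Ampd3 of the purine nucleotide cycle at 11.5 ± 0.158 FPKM in A-iSC and 2.25 ± 0.265 FPKM in AST for Adssl1 and at 11.5 ± 0.664 FPKM in A-iSC and 3.06 ± 0.170 FPKM in AST for Ampd3.

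Retinoid, aldehyde and cytochrome P450 genes were higher in 15 and lower in 8 of 47 cases. Crabp1, which binds retinoic acid (ENSMUSG00000032291, chromosome 9: 54764748 to 54773110, plus strand), had 0.309, 0.472 and 0.0930 FPKM in A-iSC, against 71.9, 92.8 and 69.9 FPKM in AST (log2 difference -5.94 ± 0.16, limma adjusted p = 2.65e-06). All A-iSC libraries were close to 0. The retinoic acid-forming enzyme Aldh1a1 was at 2.99 ± 1.4 FPKM in A-iSC and 15.2 ± 1.76 FPKM in AST, and its close relative Aldh1a7, which may share reads with it, at 1.5 ± 0.488 FPKM in A-iSC and 13.9 ± 1.68 FPKM in AST. Eicosanoid genes were higher in 11 and lower in 3 of 37 cases. Pla2g7, the secreted phospholipase that breaks down platelet-activating factor, had 131, 114 and 80.7 FPKM in A-iSC, against 5.87, 6.98 and 5.62 FPKM in AST (log2 difference 3.91 ± 0.19, limma adjusted p = 6.5e-06). Hpgd, which inactivates prostaglandins, was at 41.7 ± 2.5 FPKM in A-iSC and 4.22 ± 0.533 FPKM in AST and Ptgds, a prostaglandin D synthase, at 17.8 ± 1.69 FPKM in A-iSC and 1.93 ± 0.517 FPKM in AST. Several of the eicosanoid enzymes are known from macrophages, whose markers rose in the same libraries.

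Iron, haem and copper genes were higher in 12 and lower in 3 of 36 cases. Trf, transferrin (ENSMUSG00000032554, chromosome 9: 103204001 to 103230444, minus strand), had 161, 137 and 132 FPKM in A-iSC, against 6.83, 7.5 and 8.79 FPKM in AST (log2 difference 4.05 ± 0.14, limma adjusted p = 2.93e-06). Tfrc, the transferrin receptor, went the other way with 7.59, 8.67 and 9.96 FPKM in A-iSC, against 24.8, 17.4 and 26.9 FPKM in AST (log2 difference -1.29 ± 0.18, limma adjusted p = 0.000768). Lcn2, the siderophore-binding lipocalin, was at 9.65 ± 2.33 FPKM in A-iSC and 0.280 ± 0.133 FPKM in AST and Slc11a1, a divalent metal carrier of phagosomes, at 20.8 ± 5.32 FPKM in A-iSC and 1.75 ± 0.148 FPKM in AST. Glutathione, thioredoxin and peroxide genes were lower in 11 and higher in 6 of 59 cases, and 9 and 9 with quantile normalization. The microsomal glutathione transferases diverged, with Mgst1 at 115 ± 7.99 FPKM in A-iSC and 28.3 ± 4.94 FPKM in AST and Mgst3 at 11.9 ± 3.57 FPKM in A-iSC and 67.4 ± 19.3 FPKM in AST. The abundant members Gpx4 and Prdx1 did not pass the test, with Gpx4 at 326 ± 45.3 FPKM in A-iSC and 298 ± 27.5 FPKM in AST (limma adjusted p = 0.57) and Prdx1 at 204 ± 12.7 FPKM in A-iSC and 187 ± 18.8 FPKM in AST (limma adjusted p = 0.462). Sphingolipid genes had 6 of 44 lower (13.6%) and 5 higher (11.4%), near the background on both sides, and 4 and 6 when scaled by total reads. Hexa, a lysosomal hexosaminidase gene, was at 221 ± 23 FPKM in A-iSC and 88 ± 2.57 FPKM in AST, with 12.8% of its exonic length shared with a gene on the other strand. Sphk1, sphingosine kinase 1, was at 0.982 ± 0.188 FPKM in A-iSC and 8.66 ± 0.787 FPKM in AST. Creatine, polyamine and taurine genes had 4 of 20 in each direction, and 5 higher and none lower when scaled by total reads. Gamt, which makes creatine, was at 20.6 ± 3.09 FPKM in A-iSC and 6.48 ± 1.75 FPKM in AST, and Ckb, brain creatine kinase, at 834 ± 230.4 FPKM in A-iSC and 1787 ± 380.4 FPKM in AST (log2 difference -1.12 ± 0.29, limma adjusted p = 0.0138). Without a filter on low values, Ckb did not pass the test (limma adjusted p = 0.0832), and it was called at 2-fold or more in 15 of 21 alternative settings. Genes of nicotinamide adenine dinucleotide metabolism had 3 of 21 higher and none lower, led by Naprt at 8.89 ± 2.05 FPKM in A-iSC and 0.890 ± 0.00616 FPKM in AST, of whose exonic length 11.8% is shared with Eef1d.

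Membrane transporters were higher in 36 and lower in 23 of 187 cases over 6 lists, with the regulator Slc9a3r2 counted among the lower ones. Carriers of amino acids and neurotransmitters led, with 12 of 34 higher and 4 lower (median 0.37). Slc1a3, the glutamate carrier GLAST (ENSMUSG00000005360, chromosome 15: 8634124 to 8710764, minus strand), had 74.8, 93.2 and 205 FPKM in A-iSC, against 24.9, 19.6 and 25.3 FPKM in AST (log2 difference 2.24 ± 0.35, limma adjusted p = 0.00128). Slc1a2, the glutamate carrier GLT-1, had 14.7, 17.8 and 36.6 FPKM in A-iSC, against 1.82, 1.57 and 1.76 FPKM in AST (log2 difference 3.04 ± 0.30, limma adjusted p = 0.000129). Both are astrocyte markers and both were highest in A-iSC 3, on the long-gene side, with differences of 2.04 and 2.99 on the short-gene and long-gene sides for Slc1a3 and 2.74 and 3.75 for Slc1a2. Slc25a18, a glutamate carrier of the mitochondrial membrane, was steadier, at 62.3 ± 6.97 FPKM in A-iSC and 9.08 ± 0.602 FPKM in AST. Slc7a1, a cationic amino acid carrier, was at 1.9 ± 0.198 FPKM in A-iSC and 6.03 ± 1.6 FPKM in AST and the taurine carrier Slc6a6 at 36.6 ± 1.34 FPKM in A-iSC and 77 ± 12.1 FPKM in AST.

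Carriers of organic ions, nucleosides and vitamins were higher in 8 and lower in 2 of 25 cases. Slco2b1, an organic anion carrier found in microglia, was at 8.74 ± 0.531 FPKM in A-iSC and 0.534 ± 0.132 FPKM in AST, while its relatives Slco1a5 and Slco3a1 were at 2.25 ± 0.0983 FPKM in A-iSC and 13.5 ± 1.05 FPKM in AST for Slco1a5 and at 1.56 ± 0.142 FPKM in A-iSC and 8.89 ± 0.583 FPKM in AST for Slco3a1. Slc22a4, a carrier of ergothioneine, was at 15.4 ± 3.51 FPKM in A-iSC and 1.8 ± 0.241 FPKM in AST, and Slc15a3, a lysosomal peptide carrier, at 18 ± 2.65 FPKM in A-iSC and 2.23 ± 0.404 FPKM in AST, with 28.1% of its exonic length shared with Tmem132a on the other strand. Of 38 mitochondrial carriers 7 were lower and 4 higher, with Slc25a4, an exchanger of adenine nucleotides, at 165 ± 13.5 FPKM in A-iSC and 429 ± 95.7 FPKM in AST. The list of inorganic ion carriers also holds Slc9a3r2, a regulator that is not itself a carrier and that fell. This list had 7 of 45 genes lower and 5 higher, and 5 and 6 when scaled by total reads. Of these Slc39a13, a zinc carrier, was at 8.31 ± 2.33 FPKM in A-iSC and 25.8 ± 1.21 FPKM in AST and Slc12a9 at 15.2 ± 1.91 FPKM in A-iSC and 5.76 ± 0.204 FPKM in AST. Of the exonic length of Slc39a13 4.4% is shared with Psmc3 on the other strand, a gene at 158 FPKM in its higher group, so the value of Slc39a13 is uncertain. Carriers of sugars and monocarboxylates had 3 of 17 higher and 2 lower, among them Slc5a3, a myo-inositol carrier, at 19.3 ± 2.9 FPKM in A-iSC and 41.9 ± 1.05 FPKM in AST. ABC transporters had 5 of 29 higher and 1 lower, Abcg2, which marks the side population of stem cells, at 1.35 ± 0.232 FPKM in A-iSC and 8.5 ± 1.48 FPKM in AST. Abcc3, an exporter of conjugated organic anions, was at 8.72 ± 0.585 FPKM in A-iSC and 0.634 ± 0.159 FPKM in AST.

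**Figure D5:**
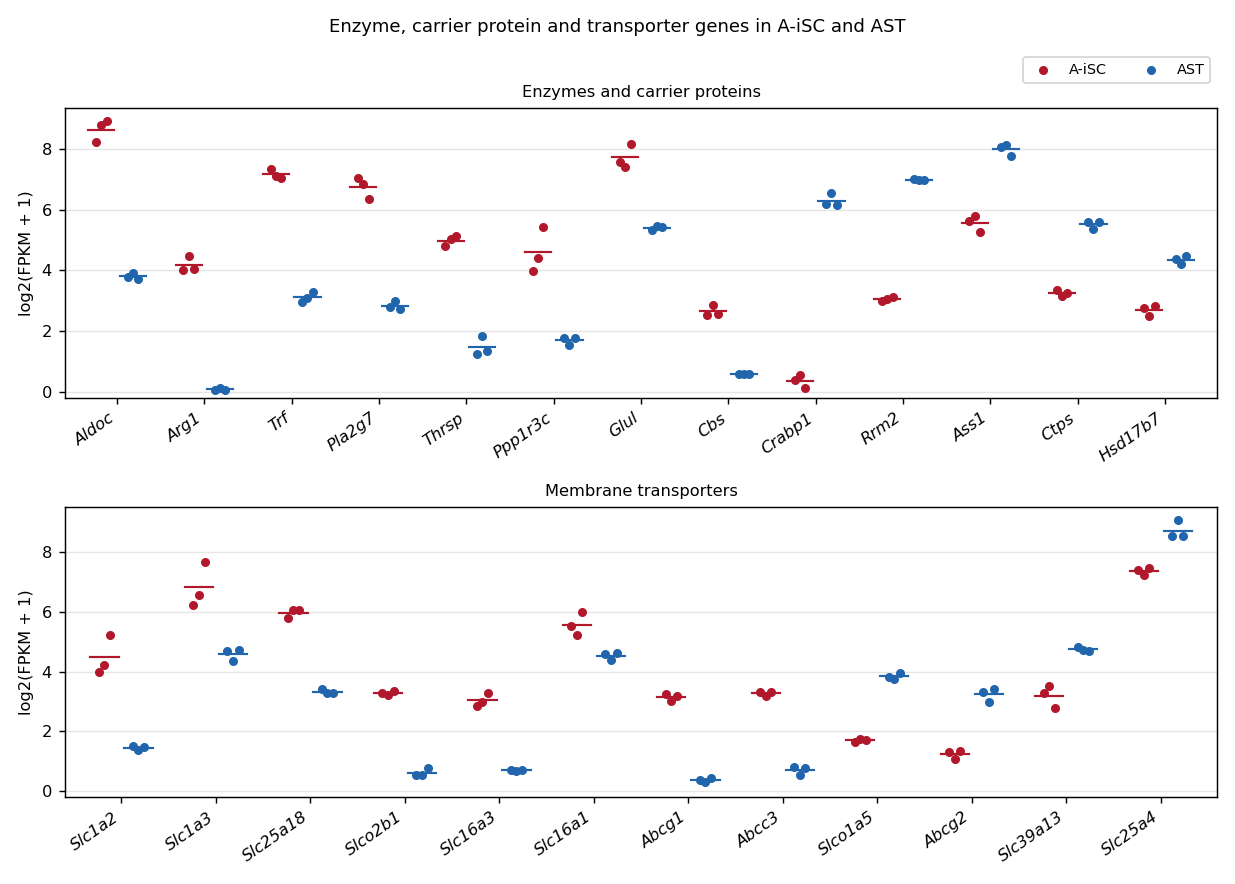
Levels of 13 genes of enzymes and carrier proteins (upper panel) and 12 genes of membrane transporters (lower panel) as log2(FPKM + 1). Each point is a library, A-iSC in red on the left and AST in blue on the right of each gene, with a line at the group mean. Slc1a2, Slc1a3 and Ppp1r3c are highest in A-iSC 3, while the A-iSC points of Rrm2 and Abcg1 lie close together.

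Over all genes at 10 FPKM or more in the higher group, the largest differences named by rule were in complement, lipoprotein and other genes on the higher side. C4b, complement component 4 (ENSMUSG00000073418, chromosome 17: 34728380 to 34743882, minus strand), had 38.5, 56.8 and 40.4 FPKM in A-iSC, against 0.398, 0.303 and 0.321 FPKM in AST (log2 difference 5.09 ± 0.16, limma adjusted p = 2.93e-06). Apoc1, an apolipoprotein, had 62.2, 52.9 and 38.6 FPKM in A-iSC, against 0.401, 0.729 and 0.434 FPKM in AST (log2 difference 5.08 ± 0.19, limma adjusted p = 3.33e-06). Ripply1, known as a repressor in somite formation, was at 68 ± 18.6 FPKM in A-iSC and 0.177 ± 0.0962 FPKM in AST. C4b has a near-identical relative, C4a, so reads may be split between the pair.

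On the lower side, Shh and Igfbp2 are secreted proteins that are in none of the 8 lists of secreted factors. Shh, the sonic hedgehog ligand (ENSMUSG00000002633, chromosome 5: 28456815 to 28467256, minus strand), had 1.27, 0.753 and 0.734 FPKM in A-iSC, against 53.6, 61.3 and 51.5 FPKM in AST (log2 difference -4.89 ± 0.14, limma adjusted p = 2.93e-06). Igfbp2, which binds insulin-like growth factors, had 236, 195 and 122 FPKM in A-iSC, against 4801, 6283 and 4591 FPKM in AST (log2 difference -4.85 ± 0.29, limma adjusted p = 1.29e-05). A-iSC 3 was the lowest library for both genes. Lox, the enzyme that links collagen fibres (ENSMUSG00000024529, chromosome 18: 52516067 to 52529867, minus strand), had 0.748, 0.634 and 0.578 FPKM in A-iSC, against 103, 87.1 and 95.5 FPKM in AST (log2 difference -5.86 ± 0.11, limma adjusted p = 7.27e-07). Acta2, smooth muscle actin, had 58.6, 40.9 and 25.5 FPKM in A-iSC, against 1742, 2113 and 1689.8 FPKM in AST (log2 difference -5.51 ± 0.29, limma adjusted p = 8.33e-06). Col1a1, a chain of type I collagen, was at 2.98 ± 0.576 FPKM in A-iSC and 158 ± 24.2 FPKM in AST, the matrix protein Fmod at 4.3 ± 0.712 FPKM in A-iSC and 229 ± 9.99 FPKM in AST, Thbs1, thrombospondin 1, at 18.9 ± 3.81 FPKM in A-iSC and 723 ± 104 FPKM in AST and Ccnd1, cyclin D1, at 12.3 ± 2.13 FPKM in A-iSC and 428 ± 92.5 FPKM in AST, with 23.4% of the exonic length of Ccnd1 shared with a gene on the other strand. The fibroblast and mural cell markers and the replication markers were lower in the same libraries.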

How the data were processed

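RNA-seq libraries of total RNA from astrocytes (AST, 3), astrocyte-derived cells after 5 days (A-iSC, 3) and neural progenitors (6, not analysed here beyond 1 alternative) were used. The authors deposited 1 table of FPKM values per gene. The NEBNext Ultra RNA kit named in the labels' protocols does not mark strand, so reads of genes that overlap on opposite strands cannot be told apart. Bowtie 0.12.2 and builds mm8 and mm9 are named in the submitters' processing notes, without a role. The coordinates in the table equalled those of GENCODE M21 (GRCm38) for 13194 of 13298 shared genes (99.2%), so GRCm38 is given here. The sources used here do not give how the authors scaled the FPKM. FPKM times gene length gave whole reads for 100% of values (tolerance 0.01), so that 1 read per kb equalled 0.0373 to 0.0596 FPKM in the 6 libraries.

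From these values log2(FPKM + 1) was fitted with limma 3.58.1 (trend) in R 4.3.3 on the 6 libraries, with a mean per group, for named genes reaching 1 FPKM in 3 or more libraries, and p-values were adjusted by Benjamini-Hochberg over the 13310 genes. No deposited FPKM value was altered, and 441 entries without a name stayed out. Promoter windows are RefSeq's for GRCm38.p6. Members, gene lists and tests were chosen with earlier results of these data known. Named genes were, from each list, up to 3 higher and 3 lower by size of the log2 difference among genes called at 2-fold or more, without overlap of the groups and at 5 FPKM or more in the higher group, and the 15 highest and 15 lowest of all genes at 10 FPKM or more. Some genes the rule names are not reported here. Any other gene with values is said to have been picked with its values known. The fit was tried on simulated reads of the 13310 genes with 200 changed, all of them at a mean above 50 reads. At an adjusted p below 0.05, without the fold threshold, it recovered 32.8%, 88.1% and 100% of genes changed 1.5-fold, 2-fold and 4-fold. Of the genes passing there 12% were unchanged, and 1.34% among genes with a mean of 50 reads or more. The simulation used a set spread and no gene-length split, so these shares do not measure the error in the real libraries. The 21 alternatives covered the pseudocount, the filter, scaling, the use of all 12 libraries, voom on the recovered reads, the gene-length split, the replicate number and each library left out.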

Additional observations from a re-analysis of the deposited data

How the results depend on the processing

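The main counts were 2910 genes called at 2-fold or more (1401 higher, 1509 lower) and 7298 called at any size. Requiring 5 FPKM in at least 3 libraries, which left 8145 genes, gave 1937 genes at 2-fold or more, 786 of them higher and 1151 lower, and 4624 at any size. In the other alternatives the 2-fold count lay between 2704, with genes of a mean under 50 reads left out (added after seeing the data), and 3936, with voom on the recovered reads. Leaving out 1 library gave 2827 to 3127 genes at 2-fold or more and 5835 to 8327 at any size. Libraries numbered 2 and 3 deviated together across the groups (correlations of 0.383 and 0.493) and those numbered 1 did not (-0.449). Those numbered 2 and 3 share a side of the gene-length split, and those numbered 1 do not. Unlike numbers on the same side also deviated together, A-iSC 1 with AST 2 (0.575) and A-iSC 3 with AST 1 (0.451). The correlations therefore cannot tell whether equal numbers are pairs. The numbers were not used as pairs, and a replicate block gave 2931 and 7499 genes. Of the 249 genes named by rule 244 had an adjusted p below 0.05 in every alternative that tested them, and none reversed. With the 2-fold threshold as well, 218 were called in each. These genes were chosen for large differences in the main fit on the same libraries. Their stability therefore does not measure that of the other called genes. Pgam1 kept the 2-fold call in 14 of 21 alternatives, Slc6a6 in 15, Mdh2 in 16, and Slc16a1 and Slc5a3 in 17. Of the 5 genes that did not pass the adjusted p somewhere, Abca1, Ckb, Pygb and Tnfsf12 are described above. Depth limits low genes: the unchanged genes called in the simulation had a median of 4.67 reads and 135 bases. The cause of the gene-length split was not tested.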

Other observations

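Of 11797 protein-coding genes tested 1267 were called higher at 2-fold or more and 1379 lower. Of 696 processed pseudogenes 9 were higher (1.29%, against 10.5% over all genes tested) and 65 lower (9.34%, against 11.3%), with a median of -0.32. The share of lower calls was thus under that of all genes. Their sequence is close to that of their parent genes, so reads may be split between the copies. Of 494 long non-coding RNA genes 81 were higher (16.4%) and 51 lower (10.3%), with a median of 0.29. Among 383 zinc finger factors of the C2H2 family named in the table's own annotation 12 were higher (3.13%) and 11 lower (2.87%), both under the shares over all genes (median 0.30). Over all 860 annotated transcription factors of 63 families 69 were higher and 66 lower (median 0.22). Both shares were under those over all genes tested (10.5% and 11.3%). The chosen lists of transcription factors described above lay over them in both directions.

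The median difference followed gene length weakly. With the genes cut into 10 equal groups by length, it was -0.15 in the shortest group, of median length 542 bases, and 0.05 in the longest, of median length 11967 bases.

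Gapdh, a glycolytic enzyme often used as a reference, had 53.9, 70.8 and 1.99 FPKM in A-iSC, against 41.3, 2.73 and 54.5 FPKM in AST (log2 difference 0.14 ± 1.42, limma adjusted p = 0.939) and was chosen after its values were seen. The libraries of 1 group differed by more than the group means did. The genome holds many near-identical copies of this gene, so its value is uncertain.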
